A study of Mus musculus with 4 samples.

Results

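The transcription factors that direct the red cell and megakaryocyte lineages were measured in sorted mouse bone marrow progenitors with and without STAT5. The group holds 10 genes, taken by symbol from the 31053 genes of the deposited matrices: Gata1, Gata2, Klf1, Zfpm1, Gfi1b, Nfe2, Tal1, Fli1, Runx1 and Lmo2. The study profiled single cells of blood progenitors and of stromal cells from control and STAT5-deficient mice, with 1 library in each group. The progenitors are KLS cells, a sort of c-Kit-positive, lineage-negative, Sca-1-positive marrow cells that is rich in stem and multipotent progenitor cells. Both KLS libraries came from femurs and tibias of mice aged 8 to 12 weeks. The labels give 4 mice and do not say whether that number is per genotype. Control mice were Vav1-Cre/+STAT5ab+/+. Knockout mice (STAT5 KO) were Vav1-Cre/+STAT5abfl/fl, so that Cre, driven by the blood-active Vav1 promoter and carried by both genotypes, deletes the adjacent Stat5a and Stat5b genes.

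GATA factors are zinc finger proteins that bind the DNA word GATA. GATA2 acts in stem and early progenitor cells, and GATA1 takes over many of its sites as cells enter the erythroid, megakaryocyte and mast lineages, a handover known as the GATA switch. Both work with the cofactor FOG1, encoded by Zfpm1, and in a complex with TAL1 and LMO2. KLF1 drives erythroid genes and FLI1 megakaryocyte genes, and the proteins oppose each other where both lineages are open. GFI1B is a repressor needed in both lineages, NFE2 drives platelet formation and globin genes, and RUNX1 is a broad blood regulator required for normal megakaryocytes.

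After filtering, 3085 KLS control and 6726 KLS STAT5 KO cells were kept, with 51139373 and 76389354 UMIs (unique molecular identifiers, each a counted transcript molecule) and medians of 15136 and 10085 UMIs per cell. In the control library 393 of 3747 barcodes were shared with another library of the series, and in STAT5 KO 295 of 7511. The 388 and 281 barcodes that held more UMIs in another library were left out. Stat5a plus Stat5b stood at 8.68% of the control level in STAT5 KO (95% interval 8.06 to 9.33%), from 1.56% in lymphoid to 29.3% in megakaryocyte cells of the classes defined below. At least 1 UMI of these genes remained in 454 of 6726 STAT5 KO cells. Ptprc, Kit and Ly6a, which encode CD45, c-Kit and Sca-1, were present in every class of both libraries. With 1 library per genotype no test was possible, and every interval covers counting error only, not the spread between mice or preparations.

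Promoter sequences are shown for Klf1 and Gfi1b, which are among the 3 genes past the fold between the genotypes below, and for Gata1, the central factor of the group, which did not differ. RefSeq (GRCm38.p6) windows of 300 bases, from 250 before to 50 after a start site, were matched for 7 of the 10 genes and gave 10 windows. Nfe2, the other gene past the fold, Fli1 and Lmo2 had no match. Each window was searched on both strands for the GATA word NGATAA, the STAT word TTCNNNGAA and the KLF word CCNCNCCC. The capitals mark matches of the GATA and STAT words. Matches of the KLF word are left in lower case.
Gfi1b (chr2:28621933-28622232, minus strand): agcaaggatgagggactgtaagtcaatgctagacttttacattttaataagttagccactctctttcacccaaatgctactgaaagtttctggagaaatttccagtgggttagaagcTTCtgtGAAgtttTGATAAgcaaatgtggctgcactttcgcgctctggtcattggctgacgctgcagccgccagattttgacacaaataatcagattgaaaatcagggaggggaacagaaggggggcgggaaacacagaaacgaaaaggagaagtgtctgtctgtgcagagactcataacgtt
Klf1 (chr8:84901732-84902031, plus strand): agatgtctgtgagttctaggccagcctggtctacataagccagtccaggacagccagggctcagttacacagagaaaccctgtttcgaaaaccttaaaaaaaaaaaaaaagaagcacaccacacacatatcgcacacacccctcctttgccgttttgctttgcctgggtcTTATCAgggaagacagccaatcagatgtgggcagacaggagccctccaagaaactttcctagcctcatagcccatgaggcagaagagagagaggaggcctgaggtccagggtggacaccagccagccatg
Gata1 (chrX:7967861-7968160, minus strand): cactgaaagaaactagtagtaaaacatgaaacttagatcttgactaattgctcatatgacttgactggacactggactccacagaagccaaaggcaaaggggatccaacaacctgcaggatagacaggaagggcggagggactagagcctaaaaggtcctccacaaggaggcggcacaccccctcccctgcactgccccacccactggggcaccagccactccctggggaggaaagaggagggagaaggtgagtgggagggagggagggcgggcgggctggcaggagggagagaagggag
The Gfi1b window held TTCTGTGAA, whose first base lies 133 bases before the start, and TGATAA 120 bases before it. The Klf1 window held TTATCA, the GATA word on the other strand, 80 bases before the start. The first of the pair of Tal1 windows held TTATCT 205 bases before the start. The other 7 windows, including that of Gata1, had no match of the GATA word, and the STAT word was found in the Gfi1b window alone. The Gata1 window lies inside the annotated gene (chrX:7959260-7978071, minus strand), so the outer end of the gene, at position 7978071, was not searched. Of all 32851 promoter windows of this length, 25.3% held the GATA word, 8.30% the STAT word, 2.46% both and 49.5% the KLF word, which matched in 8 of the 10 windows here. A match describes letters in the window and does not show binding.

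To place the regulators in lineages without using them, cells were sorted into classes by other genes. Each cell was first thinned to 4600 UMIs at random, and shallower cells were left out (27 control, 658 STAT5 KO). A lineage class needed at least 3 thinned UMIs summed over its markers, such as Car1, Epor and Ermap for erythroid cells and Pf4, Gp9 and Gp1bb for megakaryocyte cells. Cells in several classes were called mixed, and cells in no lineage class with at least 2 of Hlf, Mecom and Procr were called stem. The classes held 34 control and 115 STAT5 KO erythroid cells, 58 and 176 megakaryocyte, 490 and 462 stem, 856 and 1469 ungated, 716 and 1865 myeloid, 707 and 1316 lymphoid and 194 and 650 mixed cells. The mast/basophil class, with 3 and 15 cells, was too small to describe, and the other 7 are compared. Levels are in CPM, the UMIs of a gene scaled to a fixed total of 1000000 UMIs, from all UMIs of the cells of a class.

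Gata1 (ENSMUSG00000031162, chrX:7959260-7978071, minus strand, GENCODE M21 on GRCm38) was highest in erythroid cells of both libraries. Its level there was 171.4 CPM in control (95% interval 147.7 to 197.8) and 140.3 in STAT5 KO (124.8 to 157.1), against 77.2 and 64.0 in megakaryocyte cells. Ungated cells followed at 19.6 and 20.1 CPM, and lymphoid cells were lowest at 1.51 and 1.05. The order erythroid, megakaryocyte, ungated held beyond counting error in both libraries, while mixed and stem cells did not differ beyond it. The erythroid level was 2.22-fold the megakaryocyte level in control (1.70 to 2.91) and 2.19-fold in STAT5 KO (1.79 to 2.70). After thinning, 67.6% of control and 47.0% of STAT5 KO erythroid cells held a Gata1 UMI, with intervals of 49.5 to 82.6% and 37.6 to 56.5% that overlap. Without thinning the shares were 97.1% and 73.9%, at unequal median depths of 28063.5 and 15786 UMIs per erythroid cell. In lymphoid cells, which should lack the transcript, thinned shares were 0.707% and 0.456%, at median depths of 15607 and 10922 UMIs.

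Klf1 (ENSMUSG00000054191, chr8:84901928-84905291, plus strand) was the regulator most restricted to a class, in the sense that its highest and lowest classes lay furthest apart. Erythroid cells held 218.2 CPM in control (191.3 to 247.7) and 224.0 in STAT5 KO (204.4 to 245.0). Megakaryocyte cells held 17.9 and 4.03 CPM, and lymphoid cells 0.266 and 0.657 CPM, from 3 and 10 UMIs. The erythroid level was thus 12.2-fold the megakaryocyte level in control (7.64 to 20.6) and 55.6-fold in STAT5 KO (29.1 to 122.4). Erythroid cells with a Klf1 UMI made up 61.8% of control and 49.6% of STAT5 KO cells of the class after thinning, beside 0.283% and 0.152% of lymphoid cells. Without thinning the erythroid shares were 91.2% and 77.4%, at the unequal depths given above.

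Fli1 (ENSMUSG00000016087, chr9:32422204-32542861, minus strand) was lowest in erythroid cells, the class where Klf1 was highest, and highest in megakaryocyte cells. Megakaryocyte cells held 260.8 CPM in control (231.0 to 293.4) and 329.6 in STAT5 KO (306.3 to 354.3). Erythroid cells held 22.0 CPM in control (14.1 to 32.7) and 36.5 in STAT5 KO (28.8 to 45.5). The megakaryocyte level was 11.9-fold the erythroid level in control (7.80 to 18.8) and 9.04-fold in STAT5 KO (7.15 to 11.6). The remaining classes lay between 94.3 and 159.0 CPM, so Fli1 was present across the progenitors and low in erythroid cells. Within the erythroid class of control, Fli1 was at 150.2 CPM (79.9 to 257) in the 6 cells with a thinned Gata2 but no Gata1 UMI and at 3.87 CPM (0.469 to 14.0) in the 15 cells with Gata1 but no Gata2. It was at 37.0 CPM in the 8 cells with both and as low, at 3.68 CPM (1 UMI), in the 5 cells with neither. In STAT5 KO these levels were 67.2 CPM (45.4 to 96.0) in 34 cells and 15.2 CPM (6.96 to 28.9) in 25 cells, with 44.7 CPM with both (29 cells) and 28.5 CPM with neither (27 cells).

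Gata2 (ENSMUSG00000015053, chr6:88193891-88207032, plus strand) and its cofactor gene Zfpm1 (ENSMUSG00000049577, chr8:122282141-122337251, plus strand) had the megakaryocyte cells as their highest of the 7 classes. Gata2 stood there at 227.8 CPM in control (200.03 to 258.4) and 328.7 in STAT5 KO (305.4 to 353.4). In control, stem, ungated and erythroid cells followed at 147.1, 144.5 and 141.2 CPM and did not differ from their neighbours in this order beyond counting error. Lymphoid cells were lowest at 29.6 CPM in control and 29.0 in STAT5 KO. Zfpm1 was at 244.8 and 304.6 CPM in megakaryocyte cells, 202.6 and 232.4 in erythroid cells and 25.7 and 30.0 in lymphoid cells. Gata2 was at a level in erythroid cells that did not differ from that in stem cells beyond counting error (0.960-fold in control, 0.805 to 1.14, and 1.04-fold in STAT5 KO, 0.916 to 1.18), while Gata1 was 27.1-fold (19.3 to 38.8) and 30.0-fold (19.5 to 48.6) higher in erythroid than in stem cells.

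Gfi1b (ENSMUSG00000026815, chr2:28609450-28621982, minus strand) and Tal1 (ENSMUSG00000028717, chr4:115056426-115071755, plus strand) were high in both lineages. Gfi1b in control was at 130.2 CPM in erythroid cells (109.6 to 153.4), 59.3 in megakaryocyte cells (45.6 to 75.9) and 38.9 in stem cells. In STAT5 KO the erythroid and megakaryocyte levels, 116.9 (102.9 to 132.3) and 97.5 CPM (85.0 to 111.3), did not differ beyond counting error. Tal1 lay between 114.6 and 133.8 CPM in these classes of both libraries, at 88.2 and 76.4 in stem cells and at 31.4 and 30.2 in lymphoid cells.

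Nfe2, Runx1 and Lmo2 did not mark the erythroid class. Nfe2 (ENSMUSG00000058794, chr15:103248212-103258403, minus strand) was at 163.2 CPM in control stem cells and 146.9 in megakaryocyte cells, and at 79.8 in erythroid cells, close to the 79.1 of lymphoid cells. Runx1 (ENSMUSG00000022952, chr16:92601466-92826149, minus strand) was lowest in erythroid cells, at 74.3 CPM in control (59.0 to 92.3) and 82.8 in STAT5 KO (71.0 to 95.9), against 154.4 to 244.2 CPM elsewhere. Lmo2 (ENSMUSG00000032698, chr2:103957986-103981878, plus strand) was also lowest there, at 374.0 and 499.4 CPM, with 920.1 CPM in control stem cells. The counting rule for strand is not given in the sources used here, and annotated genes of either strand overlap Fli1, and genes of the opposite strand overlap Runx1 and Lmo2, so some of their UMIs could belong to those genes. A gene model on the same strand overlaps Zfpm1.

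**Figure D1:**
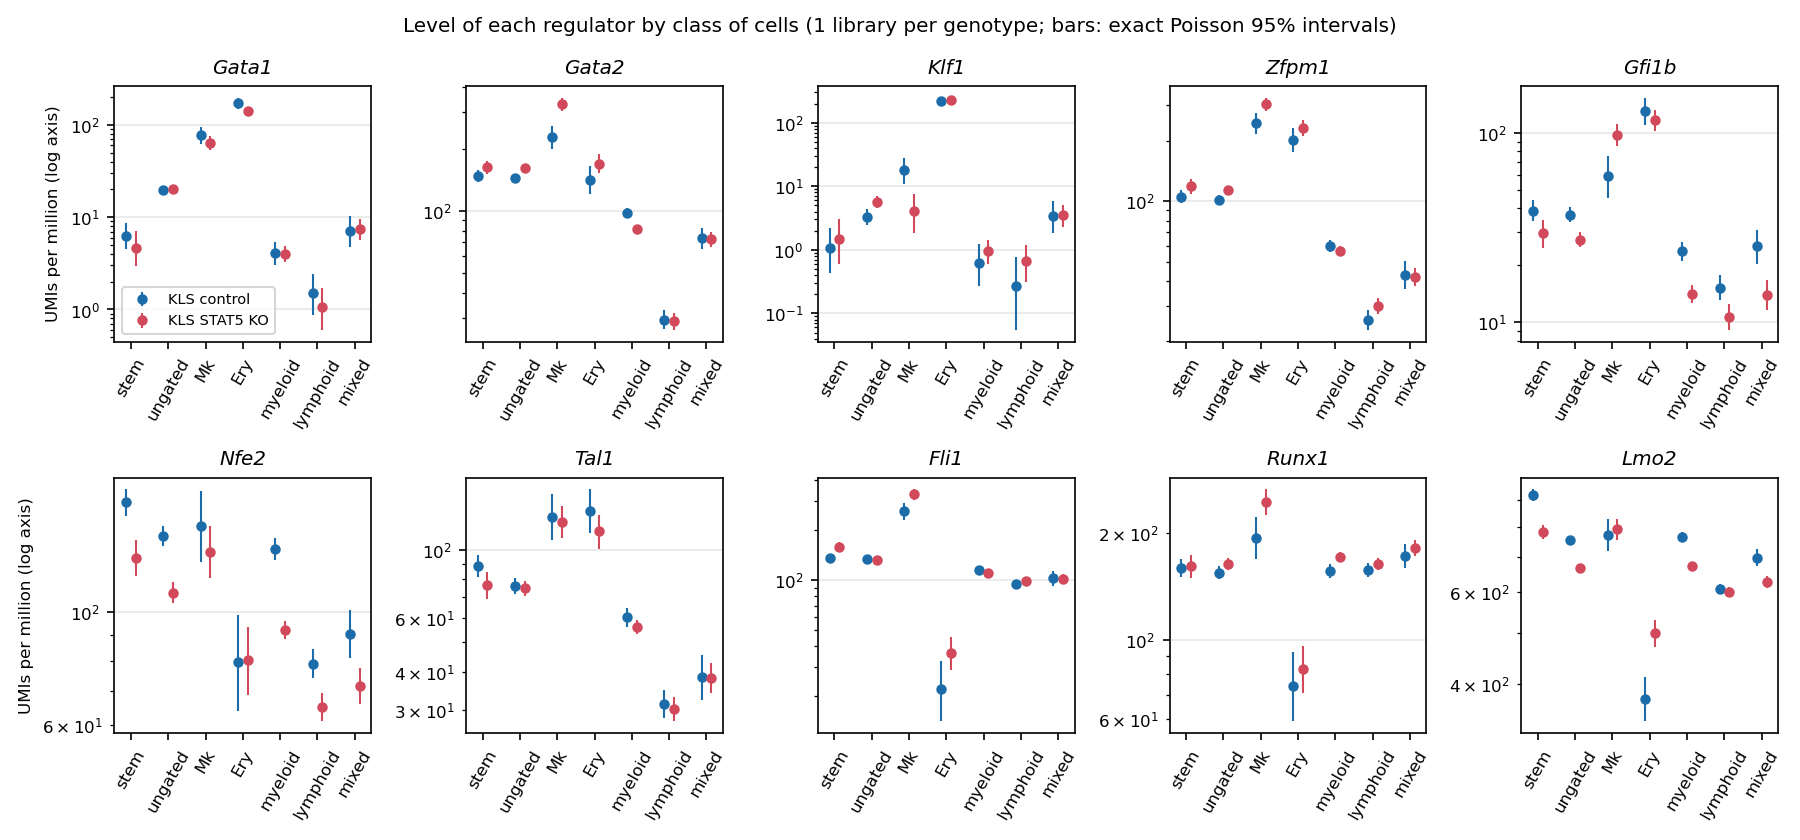
Level of each regulator (CPM, log axis) in 7 classes of KLS cells, with control in blue, STAT5 KO in red and exact Poisson 95% intervals as bars. Klf1 and Fli1 run in opposite directions between erythroid (218.2 and 22.0 CPM in control) and megakaryocyte cells (17.9 and 260.8 CPM), while Runx1 and Lmo2 are lowest in erythroid cells.

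Across the 14 profiles formed by 7 classes of both libraries, the genes whose log2 levels ran most like each regulator were listed. The classes differ in size and depth and profiles of a library share its preparation, so these Pearson correlations are descriptions. Gata1 ran closest to Mfsd2b (0.985), Samd14 (0.972), Sept8 (0.961), Asph (0.953) and Cers2 (0.951), and Klf1 to Gm15915, Hdgf, Smim1, Slc43a1 and Tspan33 (0.964 to 0.971). Samd14 and Sept8 were also among the 5 closest to Gfi1b, with Tmem64 (0.987), Abhd16a and Snap23. Gata2 ran closest to Tom1l1, Frrs1, Gse1, Apoe and Adgrl2 (0.961 to 0.985), and Rgs18 (0.988), Srgap3, Fyn and Pdp1 (0.981) were among the 5 closest to Fli1. Zfpm1 and Tal1 were among the 5 closest to each other, at 0.977. The others closest to Zfpm1 were Tgfbr3, Nckap1, Cd55 and Prkar2b, and those closest to Tal1 were Grb10, Klf9, Prrg1 and Gnb4. For Nfe2, Bgn (0.960), Gulp1, Plscr4 and Plgrkt were among them. For Runx1 they were Tmsb4x (0.983), AI504432, Arrb2, Tmem50b and Tram1, and for Lmo2 Tle2 (0.978), Rabac1, Cdk14, Pkd2 and Rab11fip3.

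Between the genotypes, over all kept KLS cells, 7 of the 10 regulators stood within the fold used for calls, as did most of all genes. A gene was called past the fold where the STAT5 KO level was at least 25% above or 20% below the control level, on at least 100 UMIs over both libraries. Of the 10 genes, 1 was past it on the higher and 2 on the lower side. Of all 12074 genes with that many UMIs, 7.67% were higher and 13.5% lower, 21.2% in all. At 1.5-fold the count was 0 of 10 on either side, beside 2.05% of all genes higher and 5.15% lower, 7.21% in all. The median log2 ratio of STAT5 KO to control was -0.01 over the 10 genes and -0.0084 over all genes. Nfe2 went from 122.9 CPM in control to 91.6 in STAT5 KO, a log2 ratio of -0.42 (-0.47 to -0.37), and Gfi1b from 30.8 to 23.0 CPM, also -0.42 (-0.52 to -0.32). These were the pair past the fold on the lower side.

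Klf1 was the gene past the fold on the higher side. It stood at 6.63 CPM in control and 8.99 in STAT5 KO, a log2 ratio of 0.44 (0.25 to 0.63). This call ended when the STAT5 KO classes were weighted to the control's class shares (0.16) and under a stricter cell filter (0.29), and the ratio was larger among cells in no lineage class (0.88) and as a mean over cells (0.77). The erythroid class held 1.11% of the control library (0.771 to 1.55%) and 1.90% in STAT5 KO (1.57 to 2.27%), and the summed level of 7 genes of mature red cells was 42.4 CPM (40.6 to 44.2) in control and 71.7 (69.8 to 73.7) in STAT5 KO. Lymphoid cells differed most in that list, at 15.2 and 101.3 CPM, while erythroid cells were at 184.2 and 238.9 CPM. In that list Alas2 had 2 and 3 UMIs and Slc4a1 3 and 1. The part of these cells and transcripts in the Klf1 ratio was not tested beyond the weighting.

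The GATA genes themselves did not differ beyond counting error. Gata1 was at 13.6 CPM in control and 13.3 in STAT5 KO, a log2 ratio of -0.03 (-0.17 to 0.11). Gata2 was at 104.6 and 105.4 CPM (0.01, -0.04 to 0.06), and Fli1 at 118.9 and 121.0 CPM (0.02, -0.02 to 0.07). Runx1 (157.2 and 169.6 CPM, log2 ratio 0.11), Zfpm1 (75.7 and 80.0, 0.08), Tal1 (63.6 and 58.5, -0.12) and Lmo2 (733.2 and 659.8, -0.15) differed beyond counting error but within the fold. The direction of Gata1 (-0.16 to 0.24), Gata2 (-0.09 to 0.15), Zfpm1 (-0.06 to 0.16) and Fli1 (-0.03 to 0.05) turned between the alternatives. Keeping the barcodes that held more UMIs in another library left the same 3 genes past the fold. Leaving out the STAT5 KO cells with a Stat5 UMI also left those 3, and moved Gata2 to -0.09 and Gfi1b to -0.55.

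Within classes the lower level of Gfi1b recurred outside the erythroid and megakaryocyte cells. Its log2 ratio was -0.40 in stem cells (38.9 to 29.5 CPM, interval -0.71 to -0.10), -0.44 in ungated, -0.74 in myeloid (23.7 to 14.2 CPM, -0.97 to -0.51), -0.51 in lymphoid and -0.85 in mixed cells. In erythroid cells it was -0.16 (-0.46 to 0.15). In megakaryocyte cells Gfi1b was higher in STAT5 KO, at 97.5 against 59.3 CPM (0.72, 0.31 to 1.15). Nfe2 was past the fold and lower in stem (-0.36), ungated (-0.37), myeloid (-0.52) and mixed cells (-0.33), and in lymphoid cells it was at -0.28. Its ratio was 0.01 in erythroid cells (-0.37 to 0.40) and -0.17 in megakaryocyte cells (-0.45 to 0.12). With gates of 2 UMIs Nfe2 in stem cells was at -0.30, and in mixed cells it was at -0.24 with gates of 5 UMIs and at -0.30 without the richest cell, all within the fold. The ratios of Gfi1b in these classes stayed past it under each of the 5 alternatives run, the smallest being -0.32 in mixed cells with gates of 5 UMIs.

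Counted by class over genes with at least 100 UMIs in it, 2 of 8 regulators in stem cells were lower past the fold (Gfi1b and Nfe2) and 0 higher, beside 10.9% and 11.3% of all genes (22.1% in all). In ungated cells 2 of 10 were lower (the same pair) and 1 higher (Klf1), beside 9.2% and 7.8% of all genes (17% in all). In myeloid cells 2 of 9 were lower and 0 higher, beside 12.1% and 9.4% (21.5% in all). In mixed cells 2 of 8 were lower and 0 higher, beside 9.68% and 12.9% (22.6% in all), and in both classes these were again Gfi1b and Nfe2. In lymphoid cells 1 of 8 was lower (Gfi1b) and 0 higher, beside 9.34% and 9.94% (19.3% in all). The primed classes, megakaryocyte and erythroid, had their calls on the higher side, where more of all genes lay as well. In megakaryocyte cells 4 of 9 were higher (Gata2, Gfi1b, Fli1 and Runx1) and 0 lower, beside 15.9% and 9.42% of all genes (25.3% in all). In erythroid cells 2 of 10 were higher (Fli1 and Lmo2) and 0 lower, beside 14.3% and 8.92% (23.2% in all), so this count was near the share of all genes.

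In megakaryocyte cells, the highest of the 7 classes for Gata2, Zfpm1, Fli1 and Runx1, the median log2 ratio of 9 regulators was 0.32, against 0.04 over all genes of the class. Gata2 was at 0.53 (0.32 to 0.74), Fli1 at 0.34 (0.14 to 0.54), Runx1 at 0.33 (0.10 to 0.57) and Zfpm1, just inside the fold, at 0.32 (0.11 to 0.53). Lower in STAT5 KO, within the fold, were Gata1 (77.2 to 64.0 CPM), Nfe2 (146.9 to 130.6) and Tal1 (128.0 to 123.0). Gata2 was inside the fold with gates of 2 UMIs (0.31) and with gates on all UMIs of a cell (0.19), and Runx1 with gates of 2 UMIs (0.30). Gfi1b was at 0.33 with gates on all UMIs, just past the fold. The 6 marker genes of the gate, summed, were at 2129 CPM in control and 2800 in STAT5 KO in this class. The erythroid and mast/basophil gate lists were also higher in STAT5 KO, while the myeloid (177.0 and 159.7 CPM), lymphoid (47.1 and 35.3) and stem lists (248.6 and 226.3) were lower, within counting error. The 6 erythroid gate genes were at 64.0 and 94.8 CPM, with Ermap, Cldn13 and Rhd at 0 in both libraries, and the 7 mast/basophil genes at 1.88 CPM (2 UMIs, 5 of 7 genes at 0) and 16.5 CPM (37 UMIs, Cma1 at 0). Stat5a plus Stat5b remained at 29.3% of control in these cells (22.4 to 38.3%). The part of each in the ratios was not tested, except that without the STAT5 KO cells holding a Stat5 UMI, Gata2 was at 0.62 and Gfi1b at 0.71.

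Klf1 in megakaryocyte cells was lower by more, from 17.9 CPM (19 UMIs) to 4.03 CPM (9 UMIs). Its log2 ratio was -2.15 (-3.48 to -0.94), on a count below the minimum of 100 UMIs. The ratio was -0.93 with gates on all UMIs of a cell and -2.09 without the cell richest in Klf1 in each library. In ungated cells Klf1 was higher in STAT5 KO, 5.67 against 3.30 CPM (95 and 47 UMIs, 0.78, 0.26 to 1.32). The summed erythroid gate genes of these cells were at 15.2 and 21.4 CPM, with Cldn13 at 0 in STAT5 KO, and the mast/basophil genes at 4.84 and 17.5 CPM, with Cma1 at 0 in STAT5 KO. Their part in the Klf1 ratio was not tested.

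In erythroid cells the level of Klf1 was alike in both libraries (0.04, -0.19 to 0.27), and Gata1 was lower in STAT5 KO within the fold (-0.29, -0.56 to -0.02). Lmo2 was higher, 499.4 against 374.0 CPM (0.42, 0.25 to 0.59), and so was Fli1, 36.5 against 22.0 CPM (0.73, 0.05 to 1.45). The 6 erythroid gate genes themselves summed to 4968 CPM in control and 4050 in STAT5 KO, and megakaryocyte gate genes to 15.6 and 14.96 CPM. Lmo2 went the other way in stem, ungated, myeloid and mixed cells, at -0.24 to -0.16.

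**Figure D2:**
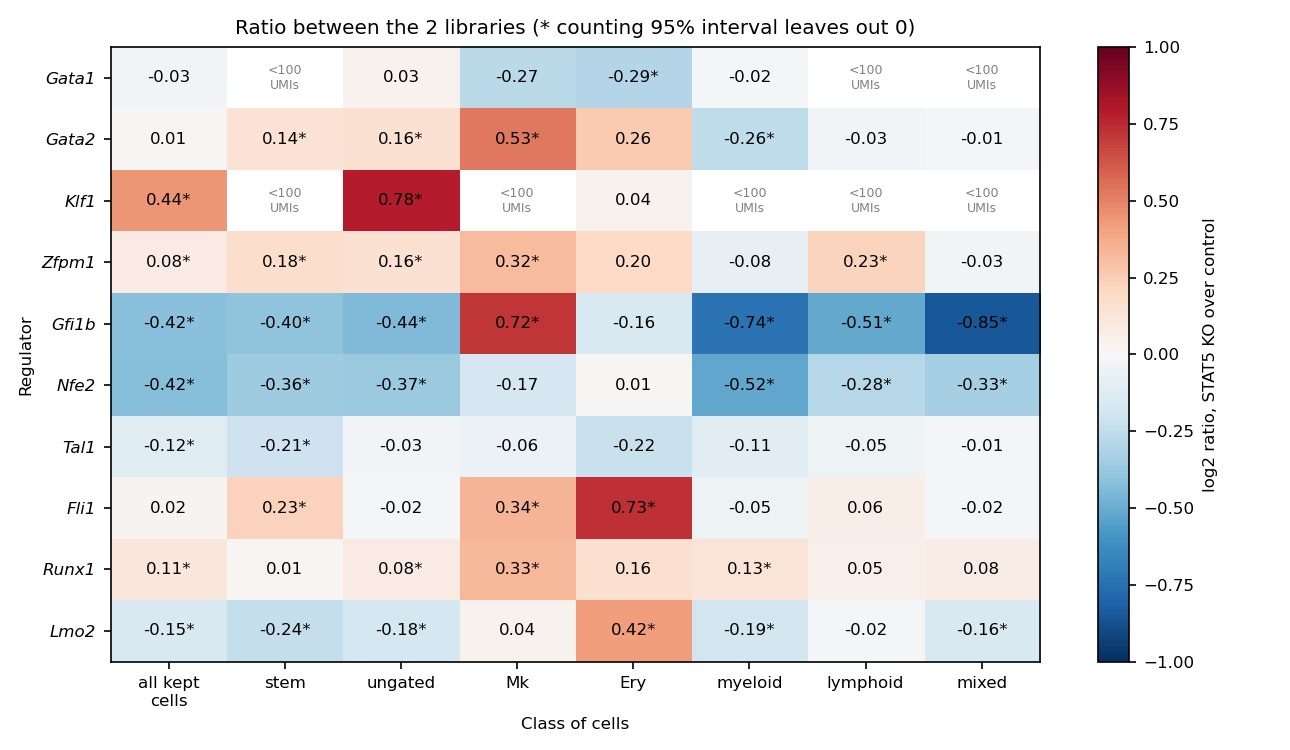
Log2 ratio of STAT5 KO to control for each regulator over all kept cells and in 7 classes, with blank cells where a class held under 100 UMIs over both libraries. Gfi1b is at 0.72 in megakaryocyte cells and between -0.85 and -0.40 in 5 other classes, and Nfe2 is lower outside the erythroid and megakaryocyte classes.

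Which regulators were found in the same cells was asked after thinning, so that all cells had 4600 UMIs. In control 118 of 3058 cells held a Gata1 UMI (3.86%, 3.20 to 4.60%). In STAT5 KO it was 271 of 6068 (4.47%, 3.96 to 5.02%). Unthinned shares over the kept cells were 8.40% and 7.89%. Of the control cells with Gata1, 19.5% also held Klf1 (12.8 to 27.8%), against 0.782% of cells without Gata1 (0.497 to 1.17%). In STAT5 KO these shares were 18.1% (13.7 to 23.2%) and 1.33% (1.05 to 1.66%). The contrast between cells with and without Gata1 was thus present in both genotypes, and its size depended on depth, since the control share was 7.94% at 2000 UMIs and 29.7% on all UMIs.

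Of the other regulators, Zfpm1, Gfi1b and Tal1 were also found more often beside Gata1, but Lmo2 was not. Lmo2 was found in 89.2% of control cells with Gata1 and Gata2 and 92.5% with Gata1 alone. It was in 96.8% of those with Gata2 alone and 93.5% with neither. Zfpm1 was found in 55.1% of control cells with Gata1 and 25.9% without, and in 67.2% and 24.7% of STAT5 KO cells. Gfi1b was found in 33.9% and 10.6% of control cells and in 29.9% and 7.88% of STAT5 KO cells, and Tal1 in 39.8% and 25.3% and in 38.4% and 23.1%. Runx1 (50% and 52.2% in control) and Nfe2 (45.8% and 44.1%) were found about as often without Gata1 as with it, with overlapping intervals. Fli1 was found in 41.5% and 41.4% of control cells and in 50.6% (44.4 to 56.7%) and 40.8% (39.6 to 42.1%) of STAT5 KO cells. Spi1, which encodes the myeloid factor PU.1 known to oppose GATA1, was found less often beside Gata1, in 27.1% against 45.2% of control cells, and in 26.9% against 44.3% in STAT5 KO, with intervals that do not overlap in either library. Epor, the erythropoietin receptor gene, was found in 23.9% of control cells with Klf1 (12.6 to 38.8%) and 1.10% without, and in 23.8% (16.7 to 32.2%) and 1.45% of STAT5 KO cells. Epor is a gate gene of the erythroid class, which was not used in this count.

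**Figure D3:**
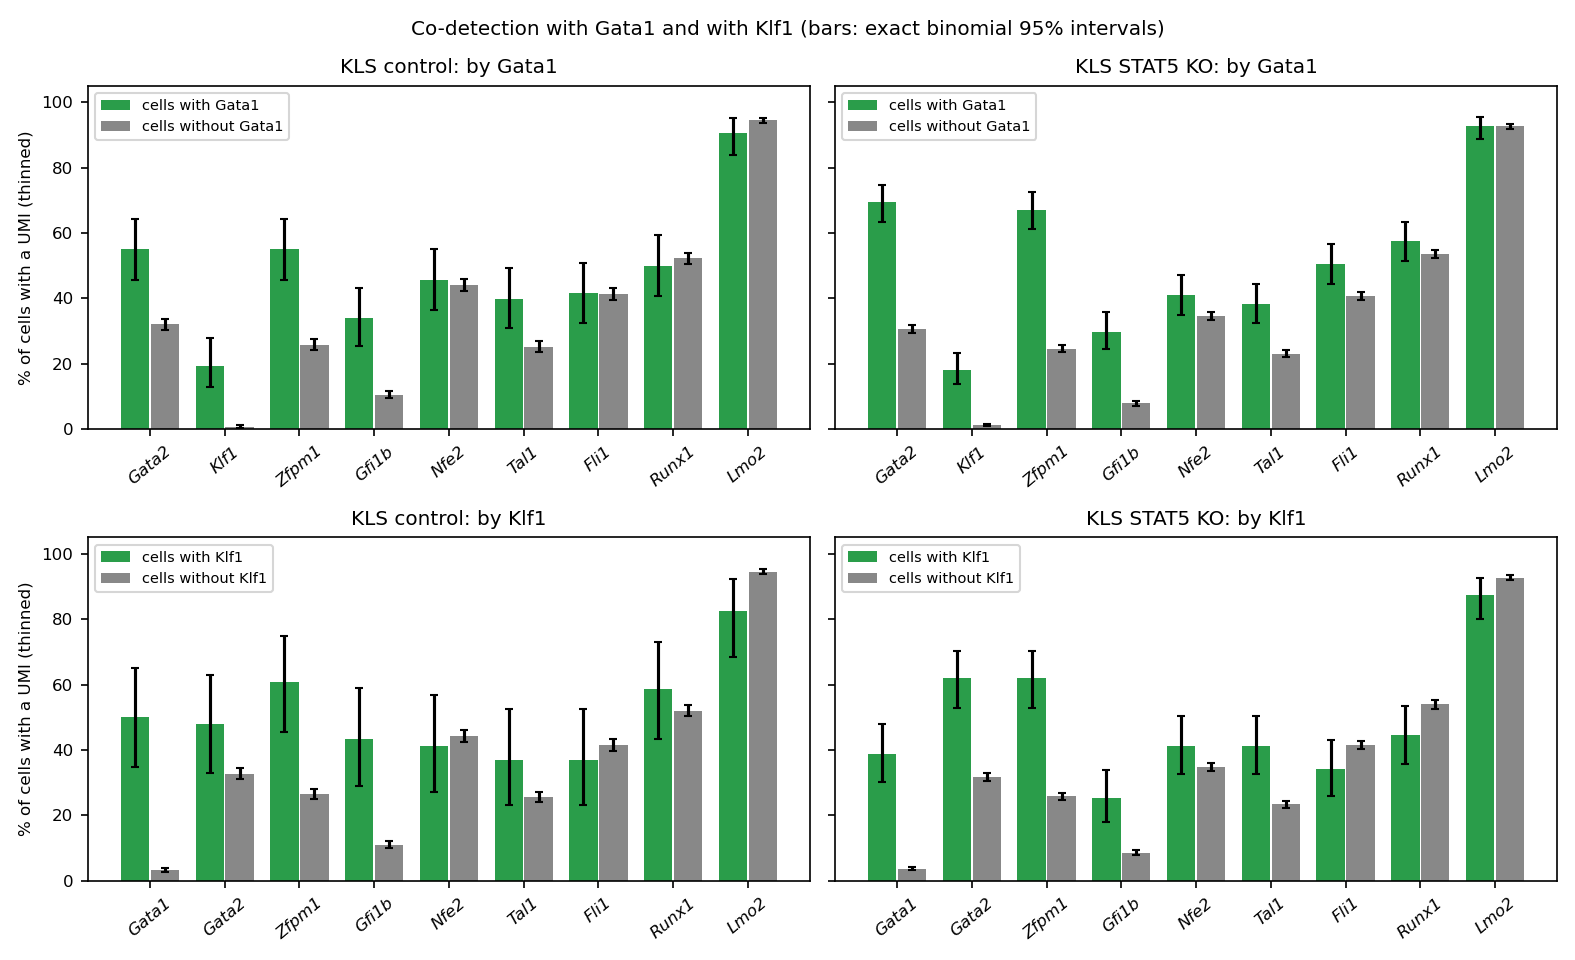
Share of thinned cells with a UMI of each regulator among cells with (green) and without (grey) Gata1 in the upper row and Klf1 in the lower row, for control on the left and STAT5 KO on the right, with exact binomial 95% intervals. Klf1 is in 19.5% of control cells with Gata1 and 0.782% of those without, while Runx1 and Lmo2 are found about as often in either group.

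Overlap of the GATA pair was followed by splitting thinned cells into 4 states. In control 65.3% of cells held neither transcript, 30.8% Gata2 alone, 2.13% both (1.64 to 2.70%) and 1.73% Gata1 alone (1.30 to 2.26%). In STAT5 KO the shares were 66.4%, 29.2%, 3.098% (2.68 to 3.57%) and 1.37% (1.09 to 1.69%). Cells with both were thus 0.97 percentage points more frequent in STAT5 KO (0.26 to 1.64 points). On all UMIs of all kept cells the difference was -0.60 points, so its direction rests on the thinning. Without thinning the control cells were deeper, at medians of 15136 against 10085 UMIs, and the part of depth in that value was not tested. Among cells with Gata1, Gata2 was found in 55.1% of control (45.7 to 64.3%) and 69.4% of STAT5 KO cells (63.5 to 74.8%). On all UMIs these shares were 90.7% and 88.9%, so here too the order of the libraries rests on the thinning. Among ungated cells with Gata1 the thinned shares were 58.2% (44.1 to 71.3%) and 82.4% (73.6 to 89.2%).

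Over all classes, Klf1 was higher with both GATA transcripts than with Gata2 alone, and higher again with Gata1 alone, in both libraries. In control it was at 2.86 CPM with neither gene, 3.19 with Gata2 alone, 52.6 with both (41.1 to 66.2) and 87.2 with Gata1 alone (72.5 to 104). In STAT5 KO the levels were 3.47, 8.67, 58.4 (48.9 to 69.2) and 133.9 CPM (115 to 155). The states differ in their classes, and this order did not hold within each. In control erythroid cells Klf1 was at 253.8 CPM with neither (5 cells, which held 69 of the 95 Klf1 UMIs of that state), 57.8 with Gata2 alone, 245.1 with both and 215.1 with Gata1 alone, and in ungated control cells it was at 18.1 CPM with both (10 UMIs) and 7.85 with Gata1 alone (4 UMIs). Zfpm1 over all classes was highest with both, at 211.0 and 277.1 CPM, against 101.3 and 116.4 with Gata2 alone. It was also highest with both in ungated and megakaryocyte control cells, but in erythroid control cells it was at 217.0 CPM with neither and 171.1 with both. Gfi1b over all classes in control went from 21.9 through 40.9 and 62.1 to 101.9 CPM, and in STAT5 KO from 15.05 through 32.0 and 77.3 to 88.8 CPM. The same order was seen in ungated control cells, at 24.4, 45.3, 77.6 and 98.1 CPM. In erythroid control cells it was not, with 187.6 CPM with neither, 46.2 with Gata2 alone, 74.0 with both and 137.6 with Gata1 alone.

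Over all classes, Nfe2 and Fli1 had their highest level with both transcripts and Lmo2 with Gata2 alone. These orders also did not hold in every class. Tal1 was alike in both states that hold Gata1, at 108.1 and 109.7 CPM in control and 120.3 and 101.3 in STAT5 KO. Nfe2 was at 152.4 CPM with Gata2 alone, 175.2 with both and 107.5 with Gata1 alone in control, and at 117.3, 125.6 and 82.1 in STAT5 KO. In control its intervals with Gata2 alone (146.2 to 158.7) and with both (153.8 to 198.9) overlap. Lmo2 was at 817.0, 666.7 and 534.2 CPM in control and 694.8, 607.9 and 592.5 in STAT5 KO. In control stem, erythroid, myeloid and lymphoid cells Lmo2 was also highest with Gata2 alone. In ungated control cells it was highest with both, at 807.0 CPM against 763.7 with Gata2 alone, and in megakaryocyte cells with neither, at 870.9 CPM. Fli1 was at 164.3 CPM with both and 112.5 with Gata1 alone in control, and at 171.3 and 124.3 in STAT5 KO. In ungated control cells these levels were alike, at 189.6 and 192.3 CPM, and in megakaryocyte control cells they were 265.0 and 311.6 CPM. Spi1 was lower in both states that hold Gata1, at 85.4 and 68.2 CPM in control against 125.3 with Gata2 alone, and at 65.9 and 54.0 against 118.8 in STAT5 KO. Markers of both lineages were present in cells with Gata1 alone. Car1, the erythroid marker, was at 2027 CPM and Pf4, the megakaryocyte marker, at 205.3 CPM in control, and at 1334 and 562.1 CPM in STAT5 KO. In control these sums came mostly from few of the 53 cells. The 15 erythroid cells held 2557 of 2884 Car1 UMIs, and the 5 megakaryocyte cells 249 of 292 Pf4 UMIs. The largest group, 23 cells, was ungated.

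**Figure D4:**
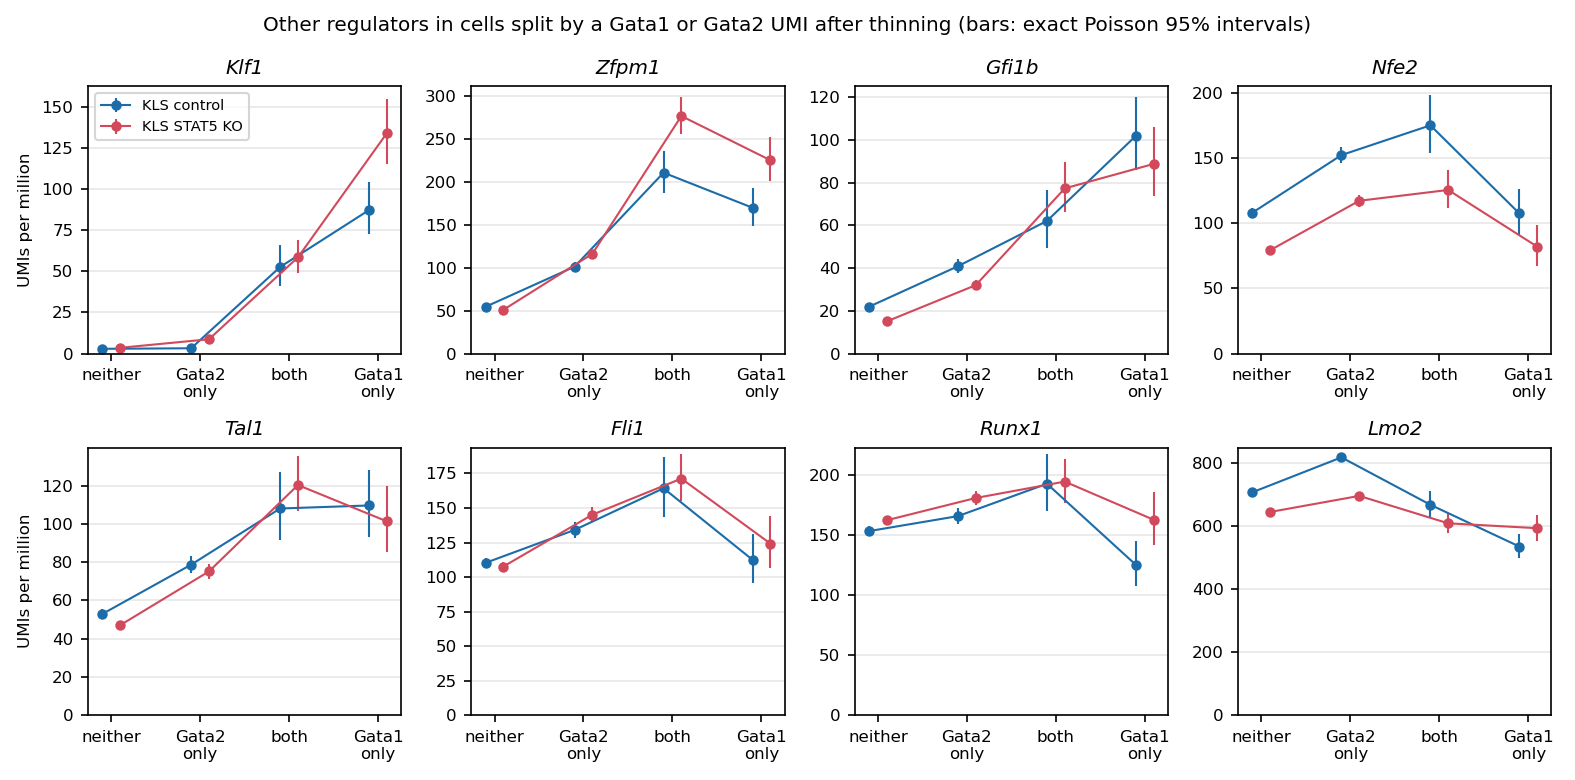
Level of 8 regulators (CPM) in thinned cells with neither GATA transcript, Gata2 alone, both, or Gata1 alone, for control in blue and STAT5 KO in red with exact Poisson 95% intervals. Over all classes Klf1 is highest with Gata1 alone (87.2 CPM in control, 133.9 in STAT5 KO), and Nfe2 is highest with both (175.2 and 125.6 CPM). In control the Nfe2 interval with both overlaps that with Gata2 alone.

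Within a cell the regulators were often found together in the primed classes. A median of 5 of the 10 was found per thinned megakaryocyte or erythroid cell in both libraries, and 2 per lymphoid cell. At least 5 were found in 65.5% of control and 77.8% of STAT5 KO megakaryocyte cells, and in 4.38% and 5.32% of lymphoid cells. At least 8 were found in 10 control cells (0.327%) and 45 STAT5 KO cells (0.742%). Detection of 0 regulators was seen in 15 control and 63 STAT5 KO cells.

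Genes that work with these regulators or follow them were then counted over all kept cells, against the same shares of all genes. Of 14 partners in their complexes, such as Ldb1, Lyl1, Cbfa2t3 and Kdm1a, 0 were past the fold in either direction, with a median log2 ratio of 0.04, and ratios from -0.15 to 0.19. Of 18 other blood transcription factors 1 was lower, the B cell factor gene Ebf1 (1.68 to 0.236 CPM, log2 ratio -2.84, from 86 and 18 UMIs), and 0 were higher, with a median of -0.04. Spi1 was at -0.03 and Cebpa at 0.08.

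Lineage genes, some of which are gate genes, had more calls. Beside the 7.67% higher and 13.5% lower of all genes (21.2% in all) and their median of -0.0084, 9 of 18 erythroid genes with enough UMIs were higher and 1 lower, with a median of 0.26. Sphk1 (1.21) and Tspan8 (0.79) were highest, and Car2, a carbonic anhydrase gene, was lower (596.1 to 348.4 CPM, -0.77). Of 16 megakaryocyte genes 6 were higher and 1 lower, with a median of 0.02. Thbs1 (2.62, from 17 and 156 UMIs), Vwf (1.21) and Selp (1.05) were highest. Of 11 mast/basophil genes 5 were higher and 1 lower, with a median of 0.23. Gzmb (2.60, from 12 and 109 UMIs), Fcer1a (2.12) and Mcpt8 (1.07), which encode a protease, an IgE receptor chain and a basophil protease, were highest, and the mast cell protease gene Cma1 was lowest (-1.25). With the STAT5 KO classes weighted to the control's shares, 7 erythroid, 8 megakaryocyte and 5 mast/basophil genes were past the fold in either direction. The share of all genes past the fold was not computed under this weighting, so these counts have no background to be read against.

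In the stromal libraries of the series (577 control and 374 STAT5 KO cells kept, from mice of 6 to 8 weeks), which were sorted against CD45, Runx1 was the regulator with most UMIs. It was at 447.9 CPM in control (417.1 to 480.3) and 429.4 in STAT5 KO (393.1 to 468.2), in 43.7% and 41.2% of cells. Ptprc had 7 UMIs in each library. Gata1 had 0 and 1 UMIs, where 0 allows up to 1.71 CPM, Gfi1b 1 and 0, and Klf1 11 UMIs in 3 control cells and 0 in STAT5 KO, which allows up to 2.50 CPM. Lmo2 was at 45.6 and 65.04 CPM and Nfe2 at 39.4 and 25.02 CPM, in 7.80% and 6.15% of cells.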

How the data were processed

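Single-cell RNA libraries of KLS and stromal cells were used as deposited: raw UMI counts per gene and barcode, with no normalization by the authors per the file headers and values. Counts came from Cell Ranger on GRCm38 (mm10) per the submitters' processing notes, with software version 3.1.0 per the file headers. The strand rule and cell calling are not given in the sources used here. Columns of values without a sample numbered 0.

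A cell needed 200 detected genes, and no more than 10% of its UMIs could be mitochondrial. The highest Scrublet scores (scanpy 1.11.5) were left out, 0.8% of barcodes per 1000 barcodes, which marked 112 control and 451 STAT5 KO barcodes. Scrublet's own threshold marked 0 and 1. Barcodes with more UMIs in another library were left out. No correction for free RNA was made. Gates used no gene of the group. UMIs were summed and scaled to CPM. Sums carry exact Poisson, shares exact Clopper-Pearson and ratios exact conditional binomial 95% intervals. Limits for a count of 0 use 3 counts. PCR and droplet sampling beyond UMI counting are not covered. Calls needed a level 25% above or 20% below control and 100 UMIs over both libraries.

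All 10 regulators are named. From each companion list the 3 genes furthest up and the 3 furthest down past the fold are named, and further genes were named as examples after their values were seen. Some genes that these rules name are not reported here. Most like genes are the 5 highest Pearson correlations of log2(CPM + 1) over classes with at least 20 cells, among genes with at least 200 UMIs and without gate, hemoglobin, immunoglobulin, Xist and Y-linked genes. The regulators and lists were chosen with earlier results of these data known. The ratio step was tested on simulated data. Alternatives used filters, scaling with edgeR 4.0.16 TMM factors, weights, gates, thinning and seeds. Leaving out Stat5-positive STAT5 KO cells and the richest cell was chosen after seeing the data. Coordinates are from GENCODE M21 and promoters from RefSeq GRCm38.p6. Python 3.11.15, numpy 2.4.6, scipy 1.17.1, pandas 2.3.3, matplotlib 3.10.9 and R 4.3.3 were used.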

Additional observations from a re-analysis of the deposited data

Results flagged for a closer look

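Gfi1b went in opposite directions between classes of cells. Its log2 ratio of STAT5 KO to control was 0.72 in megakaryocyte cells, and it was -0.40 in stem, -0.44 in ungated, -0.74 in myeloid, -0.51 in lymphoid and -0.85 in mixed cells, each with a counting interval that leaves out 0. The megakaryocyte value ranged from 0.33 to 0.82 over 5 alternatives. Klf1 likewise was at 0.78 in ungated cells and -2.15 in megakaryocyte cells, the latter on 19 and 9 UMIs. The differences between classes were not tested, since each class of a genotype comes from 1 library.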

How the results depend on the processing

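Of 43 alternative settings of the main results, 36 were labelled the same, 6 moved and 1 turned direction. Here the same means inside the counting interval of the main value, or for a count within 1.5-fold of it. A setting labelled the same could therefore still end a call past the fold. The median log2 ratio of the 10 regulators was -0.01 and became -0.12 without the STAT5 KO cells with a Stat5 UMI. The count past the fold went from 3 to 0 at 1.5-fold, and the erythroid list from 10 to 5 genes. On all UMIs of a cell, where depth differs between the libraries, the difference in the share of cells with Gfi1b was -12.4 points (-2.61 after thinning), and the share of control cells with Gata1 that hold Klf1 was 29.7% (19.5% after thinning, 7.94% at 2000 UMIs). The difference in cells with both GATA transcripts was -0.60 points on all UMIs and 0.97 points after thinning. Of 443 settings of 88 single values, 375 were the same in this sense, 68 moved and 0 turned a called direction. TMM factors shifted every log2 ratio by 0.02. Depth limits Klf1 and Gata1 in stem, lymphoid and mixed cells, where either gene had under 100 UMIs. Klf1 was also under 100 UMIs in myeloid cells (8 in control and 23 in STAT5 KO) and in megakaryocyte cells (19 and 9). No paired analysis was possible because each group is 1 library and the labels give no replicate numbers that pair samples.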
